A study of Mus musculus with 6 samples.

Results

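Hedgehog pathway genes were followed in ECFP+ osteoblasts (OBs) that had been sorted out of ectopic bone induced with BMP-2. Their 9 genes were chosen by gene symbol, among the 23284 genes listed for each library, as 2 ligands (*Ihh*, *Shh*), the receptor *Ptch1*, the decoy receptor *Hhip*, the transducer *Smo*, the inhibitor *Sufu* and 3 transcription factors (*Gli1*, *Gli2*, *Gli3*). OBs were taken from *Col2.3*-ECFP mice, in which a type I collagen promoter drives a cyan fluorescent protein, on day 10 (n = 3) and day 14 (n = 3) after a collagen sponge with 2.5 μg of recombinant human BMP-2 was placed under the skin of the back. The methods give male mice of 12 to 16 weeks, and no untreated or BMP-2-free group was sequenced among the samples used here. Cells were freed by trypsin (0.25%, 15 min) followed by collagenase II (0.2%, 40 min per round), of which day 10 bone received 1 round and day 14 bone 2 rounds, so that digestion and day cannot be told apart. CD45+ and dead cells were gated out before sorting. The titles call the samples biological replicates without naming the mice, so p-values measure only the spread between these samples. Sample titles place 3 libraries on day 14, whereas their descriptions give day 14, 15 and 16 for replicates 1, 2 and 3.

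Hedgehog ligands bind *Ptch1* and release *Smo* from inhibition, and *Smo* then acts through *Sufu* and the Gli proteins at the primary cilium. *Ptch1*, *Gli1* and *Hhip* are themselves switched on by the pathway, so their transcripts are widely read as a sign of its activity. In growing bone *Ihh* is made mainly by prehypertrophic chondrocytes and acts on neighbouring chondrocytes and on OB precursors, whereas *Shh* patterns the limb bud and the nervous system.

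Values are FPKM, that is reads scaled by transcript length and by the number of reads mapped. Levels of different genes can thus be compared per length, within the limits given below. The depth was estimated at 4540000 to 7770000 reads per library from the steps between low values. Canonical OB genes were high, with *Col1a1* at 14151 to 34157 FPKM. Genes listed as markers of other cell types were read as well. *Ptprc*, which encodes CD45, was at 0.134 to 2.99 FPKM, and 9 myeloid genes summed to 36.1 to 161 FPKM on day 10 and to 262, 20.2 and 615 FPKM in replicates 1, 2 and 3 of day 14. The 8 endothelial genes, all with higher means on day 14, summed to 1.98 to 4.34 FPKM on day 10 and 5.33 to 10.2 FPKM on day 14. Of 7 osteoclast genes, *Ctsk* made up most of the sum and was at 403 to 425 FPKM on day 10 and 574 to 614 FPKM on day 14, whereas the other 6 had log2 differences below 0 (median of the 7, −0.90). The summed values were 410 to 873 FPKM on day 10 and 632 to 778 FPKM on day 14 for pericyte and smooth muscle genes, and 3482 to 4482 and 3829 to 5773 FPKM for fibroblast genes. Skeletal muscle and adipocyte genes summed to at most 30.8 FPKM. The highest fibroblast genes were *Dcn* (1657 to 2808 FPKM over the 6 libraries) and *Lum* (984 to 2530 FPKM). *Acta2* (236 to 594 FPKM) was the highest pericyte and smooth muscle gene. Whether the genes of these lists were expressed by other cells or by the sorted OBs was not tested. The part of other cells in the results was not tested either. Low values, 0 included, have to be read with care in these files. *Ppia*, a gene that every cell uses, was also listed at 0 in 5 libraries. *Gapdh*, another such gene, was at only 0.125 to 0.414 FPKM, so a low value need not mean a low level. Replicate 2 of day 14 stood apart from replicates 1 and 3 of its day in the mean level of cartilage genes, which was higher. Its mean level of myeloid genes was lower, as given beside *Ihh*. Each result that rests on this library is also given without it.

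On the level of FPKM, the order on day 10 was *Smo* (18.3 FPKM), *Sufu* (6.09), *Ptch1* (5.12), *Gli3* (5.02), *Ihh* (3.53), *Gli2* (1.35), *Gli1* (0.827), *Hhip* (0.540) and *Shh* (0.0277). *Smo* was the highest of the 9 genes in all 6 libraries. Neighbours in this order overlapped in their samples from *Sufu* through *Ptch1* and *Gli3* to *Ihh*, and *Gli2* overlapped with *Gli1*, while *Smo* and *Sufu*, *Ihh* and *Gli2*, and *Gli1* and *Hhip* did not overlap. On day 14 *Smo* (21.2), *Gli3* (5.70) and *Sufu* (5.26) led, followed by *Ptch1* (1.96), *Gli2* (1.65), *Ihh* (1.26), *Gli1* (0.400), *Hhip* (0.371) and *Shh*. On that day *Gli3* overlapped with *Sufu*, and each neighbour from *Ptch1* down to *Hhip* with the next. Among all genes listed, *Ptch1* ranked 6578 on day 10 and 9412 on day 14, and *Smo* 2871 and 2640.

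**Figure D1:**
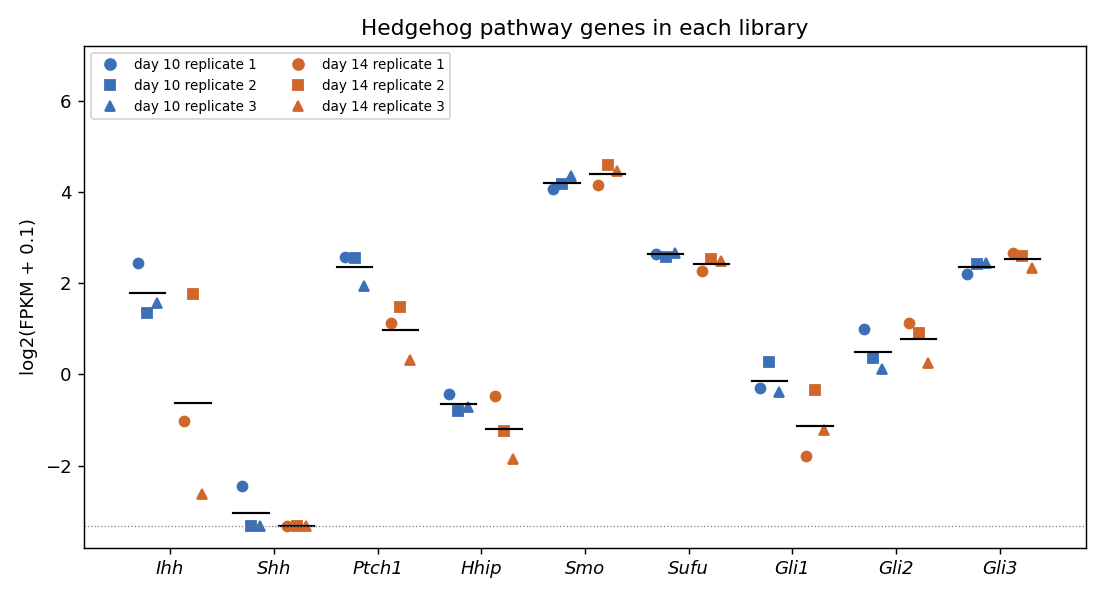
Levels of the 9 Hedgehog genes in each library as log2(FPKM + 0.1), with day 10 in blue and day 14 in orange, 1 marker shape per replicate number and black bars for the mean of 3 libraries. The dotted line is a value of 0 FPKM. The day 14 markers of *Ptch1* (1.14 to 2.67 FPKM) all lie below its day 10 markers (3.73 to 5.88 FPKM), while *Ihh* is spread from 0.0633 to 3.31 FPKM within day 14.

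*Ptch1*, *Ihh* and *Gli1* had lower means on day 14, while *Smo*, *Gli2* and *Gli3* had slightly higher means with overlapping days. None of the 8 genes that could be tested had an adjusted p under 0.05 from limma, against 0.0154% of the 19526 genes tested (3 genes). By limma's unadjusted p under 0.05, 2 of the 8 passed (*Ptch1* and *Ihh*), both lower on day 14, where 10.0% of all genes tested passed in either direction and 4.40% passed as lower. In 2 of the 8 genes (*Ptch1* and *Sufu*) every day 14 library was below every day 10 library, where 14.3% of all genes tested were apart in either direction and 6.67% were apart as lower. The median log2 difference was −0.38 over the 8 genes and −0.04 over all genes tested.

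*Ptch1* and *Ihh* were the members that passed the unadjusted p, and the sequences around their transcription starts are shown. They are RefSeq windows on GRCm38.p6, the assembly of mm10, from 250 bases before to 50 bases after the start, with the GC box letters GGGCGG or CCGCCC in capitals. *Ihh* lies on the minus strand at chr1:74951623-74951922 and *Ptch1* on the minus strand at chr13:63565686-63565985, a start inside the span of the annotated gene.

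Ihh: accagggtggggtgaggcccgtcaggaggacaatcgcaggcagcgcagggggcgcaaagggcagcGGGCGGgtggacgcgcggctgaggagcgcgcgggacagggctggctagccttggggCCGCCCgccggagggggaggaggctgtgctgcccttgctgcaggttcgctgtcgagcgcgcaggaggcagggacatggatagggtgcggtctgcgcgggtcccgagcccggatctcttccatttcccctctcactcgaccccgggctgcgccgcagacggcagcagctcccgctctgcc

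Ptch1: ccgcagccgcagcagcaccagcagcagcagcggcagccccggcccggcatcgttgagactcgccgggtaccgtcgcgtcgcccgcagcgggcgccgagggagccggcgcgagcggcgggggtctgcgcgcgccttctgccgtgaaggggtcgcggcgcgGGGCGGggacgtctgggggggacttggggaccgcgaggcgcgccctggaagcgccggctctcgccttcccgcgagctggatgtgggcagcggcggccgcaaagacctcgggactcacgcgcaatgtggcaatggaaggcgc

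The *Ptch1* window held 47 CpG dinucleotides and 76.3% G or C, and the *Ihh* window 30 CpG dinucleotides and 72.7% G or C. The median of all 32851 windows was 7 CpG dinucleotides and 52.7% G or C. Both starts are thus CpG-rich. In all, 7 of the 9 genes matched a window, with a median of 30 CpG dinucleotides and 71.0% G or C. A GC box stood at 1 place in the *Ptch1* window and at 2 places in the *Ihh* window, and 35.7% of all windows held at least 1 on either strand. The Gli consensus GACCACCCA (TGGGTGGTC on the other strand) was in none of the 7 matched windows and in 0.253% of all windows, which says only that these letters are not in these short stretches. *Shh* and *Gli1* were not matched.

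*Ihh*, the ligand of the growth plate, lies on chromosome 1 from 74945315 to 74951672 in the GENCODE vM21 annotation of mm10. The day 10 libraries, replicates 1 to 3 in order, held 5.29, 2.44 and 2.87 FPKM, and the day 14 libraries, in the same order, 0.391, 3.31 and 0.0633 FPKM. All 3 day 10 libraries and replicate 2 of day 14 were high, replicates 1 and 3 of day 14 were low, and the days overlapped. The mean was 3.53 ± 1.54 FPKM (SD, n = 3) on day 10 and 1.26 ± 1.79 FPKM (SD, n = 3) on day 14. The log2 difference was −2.40 (standard error 0.97, adjusted p = 0.461 and unadjusted p = 0.0368 from limma), a 5.29-fold lower FPKM + 0.1. A two-sided exact permutation test gave p = 0.3. In sorted bulk samples, fewer cells that express a gene and less RNA per cell cannot be told apart. The high libraries rested on about 30.3 to 58.2 estimated reads, and the low libraries on about 3.97 and 1.00. The low values lie near or under the level of 3 reads (0.296 and 0.189 FPKM), which covers counting error only, so the size of the difference depended on the pseudocount. It was −1.24 with a pseudocount of 1 and −2.86 with 0.01. Leaving out any 1 library other than replicate 2 of day 14 kept its sign (−2.62 to −1.41) and took its unadjusted p above 0.05.

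The mean level of the cartilage list moved with *Ihh* over the libraries, though not every gene of the list did. *Col2a1*, the main collagen gene of cartilage, was at 373, 321 and 189 FPKM in the day 10 libraries against 12.1, 688 and 8.75 FPKM in replicates 1, 2 and 3 of day 14. *Col10a1*, the collagen gene of hypertrophic chondrocytes, was at 14.3, 26.1 and 13.8 FPKM in the day 10 libraries against 2.99, 67.4 and 0.194 FPKM in the day 14 libraries. Replicate 2 of day 14 was thus the highest library for both, and replicates 1 and 3 of that day were the lowest, with the same low pair as for *Ihh*. Within day 10, *Col10a1* was highest in replicate 2, where *Ihh* was lowest. The 14 cartilage genes listed summed to 786 to 1635 FPKM on day 10, to 235 and 180 FPKM in replicates 1 and 3 of day 14 and to 2532 FPKM in replicate 2. Of these 14 genes, 11 had a log2 difference below 0 in the means of log2(FPKM + 0.1), 3 of them with an unadjusted p under 0.05 from limma, and *Matn1* was listed at 0 in 3 libraries. The other 3 were *Sox9*, *Sox5* and *Matn3*, with log2 differences of 0.08, 0.37 and 0.19. *Sox5* was higher in every day 14 library than in any day 10 library. The mean log2(FPKM + 0.1) of the list had a Pearson r of 0.95 with *Ihh* over the 6 libraries, which share their depth and cell mixture with it. The 9 markers of prehypertrophic and hypertrophic chondrocytes include *Ihh* itself and share *Sp7* with the OB markers. They summed to 580 to 1000 FPKM on day 10 and 397 to 1830 FPKM on day 14. By limma's unadjusted p 5 of them were lower, while *Mmp13* and *Runx3* had log2 differences above 0 (1.14 and 0.27). *Mmp13*, at 178 to 595 FPKM on day 10 and 336 to 1384 FPKM on day 14, was a large part of these sums. The 7 OB markers had the same r of 0.95 with *Ihh*. Their mean log2(FPKM + 0.1) was 8.84, 8.90 and 7.93 on day 10 and 6.81, 8.38 and 5.92 on day 14, and all 7 had lower means on day 14, 2 of them (*Sp7* and *Dlx5*) with an unadjusted p under 0.05. Myeloid genes ran the other way within day 14, with a mean log2(FPKM + 0.1) of 3.49, −0.32 and 4.08 in replicates 1, 2 and 3, and *Ptprc* was at 2.99, 0.134 and 2.81 FPKM. On day 10 the myeloid means were 0.99, 2.82 and 2.02. The part of cartilage cells, of myeloid cells and of OB marker levels in the *Ihh* values was not tested. Without replicate 2 of day 14 the log2 difference of *Ihh* was −3.60 (standard error 0.60, adjusted p = 0.0617 from limma), with the remaining days apart.

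**Figure D2:**
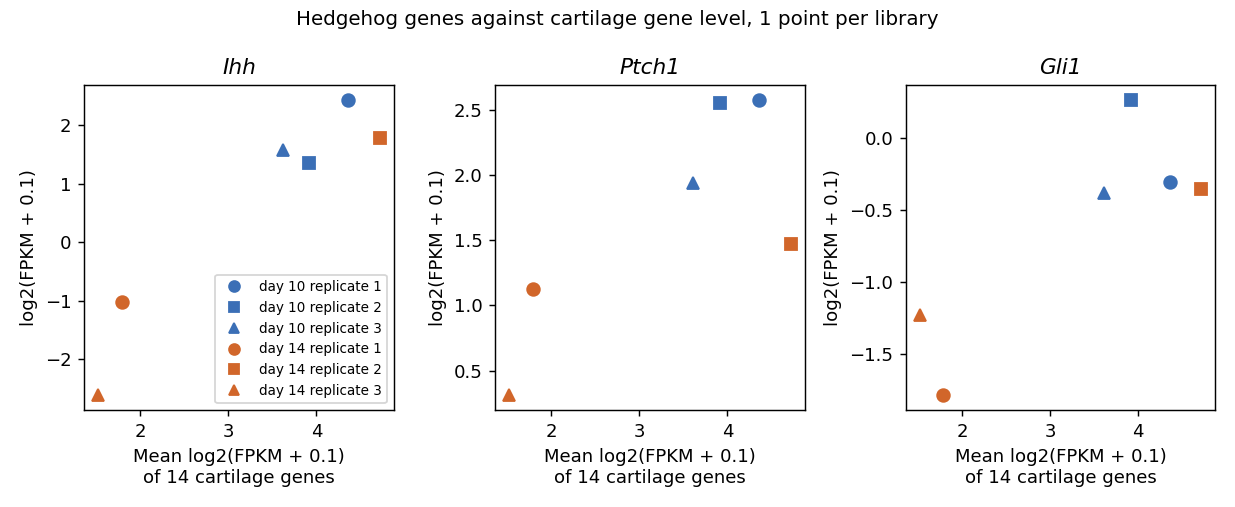
Level of *Ihh*, *Ptch1* and *Gli1* in each of the 6 libraries against the mean level of 14 cartilage genes, both as log2(FPKM + 0.1), with day 10 in blue and day 14 in orange and 1 marker shape per replicate number. Replicate 2 of day 14 has the highest cartilage level (4.72) and lies among the day 10 libraries for *Ihh*, close to the lowest of them for *Gli1*, and below all of them for *Ptch1*.

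The genes most like *Ihh* were sought among 6751 genes with a mean of at least 5 FPKM, by Pearson r of log2(FPKM + 0.1) over the 6 libraries. They were *Apeh*, *Panx3*, *Cd24a*, *Adamts18* and *Nhej1*, with r between 0.993 and 1.00, and 86 genes had an r above 0.95. *Panx3* encodes a pannexin channel of prehypertrophic chondrocytes and OBs, and it was at 208, 105 and 103 FPKM in the day 10 libraries against 25.2, 118 and 10.5 FPKM in the day 14 libraries. *Nhej1* is a DNA repair gene that lies next to *Ihh* on the same strand, from 74967139 to 75125200 on chromosome 1, and a gap of 15466 bases separates the annotated genes. It was at 9.59, 6.26 and 6.44 FPKM in the day 10 libraries against 2.74, 8.45 and 1.77 FPKM in the day 14 libraries. The order of its day 14 libraries was that of *Ihh*, at a narrower range. With 6 libraries, such r values only describe a shared split.

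*Shh*, on chromosome 5 from 28456815 to 28467256, was listed at 0.0830 FPKM in replicate 1 of day 10 and at 0 in the other 5 libraries. The former value corresponds to about 1.07 estimated reads, and a listed 0 allows up to 0.148 to 0.253 FPKM per library at 3 reads. It did not pass the filter on low values and was not tested. *Dhh*, the ligand known from testis and nerve, was between 0.0655 and 0.234 FPKM, on at most 5.58 estimated reads. *Ihh* was above *Dhh* in 5 of the 6 libraries, the exception being replicate 3 of day 14.

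*Ptch1*, the receptor that also serves as a target gene, lies on chromosome 13 from 63508328 to 63573598. It was at 5.88, 5.76 and 3.73 FPKM in the day 10 libraries against 2.08, 2.67 and 1.14 FPKM in replicates 1, 2 and 3 of day 14. Every day 14 library was below every day 10 library, replicate 2 of day 14 included. The mean was 5.12 ± 1.21 FPKM (SD, n = 3) on day 10 and 1.96 ± 0.773 FPKM (SD, n = 3) on day 14, a 2.62-fold lower FPKM + 0.1. The log2 difference of −1.39 (standard error 0.36) was larger than the spread between replicates by the unadjusted p of 0.00439, but its adjusted p over all genes tested was 0.312 from limma. A two-sided exact permutation test gave p = 0.1, which is the lowest value possible with 3 libraries on each day. Among all genes tested, 274 had a smaller unadjusted p from limma than *Ptch1*, and 6.39% had a log2 difference of at least this size in either direction. These values rested on about 60.5 to 240 estimated reads. Its r was 0.77 with the cartilage list and 0.94 with the OB markers over the 6 libraries. Without replicate 2 of day 14 the log2 difference was −1.64 (adjusted p = 0.114 from limma).

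The genes most like *Ptch1* were *Pcdh18*, *Eef2k*, *Fam46a*, *Dapk2* and *Gprc5c*, with r between 0.990 and 0.996 over the 6 libraries. *Gprc5c*, an orphan G protein-coupled receptor, was at 95.2, 96.1 and 47.4 FPKM in the day 10 libraries against 20.6, 39.8 and 7.63 FPKM in the day 14 libraries. *Pcdh18*, a protocadherin, was at 20.1, 18.3 and 12.8 FPKM in the day 10 libraries against 7.89, 10.7 and 5.36 FPKM in the day 14 libraries. *Ptch1*, *Pcdh18* and *Gprc5c* all had replicate 3 as the lowest library of each day.

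*Gli1*, the transcription factor whose transcript is itself induced by the pathway, lies on chromosome 10 from 127329882 to 127341974. It was at 0.709, 1.10 and 0.669 FPKM in the day 10 libraries against 0.190, 0.683 and 0.328 FPKM in replicates 1, 2 and 3 of day 14. Replicate 2 of day 14 lay just above the lowest day 10 library, and the days overlapped through that library alone. The log2 difference was −0.98 (standard error 0.55, adjusted p = 0.612 from limma), and a two-sided exact permutation test gave p = 0.2. Depth limits this gene, since its values rested on about 3.30 to 23.5 estimated reads. With a pseudocount of 1 the log2 difference was −0.39. Without replicate 2 of day 14 it was −1.37 (adjusted p = 0.373 and unadjusted p = 0.0466 from limma). The genes most like it were *Srrm2*, *Acads*, *Ccnd3*, *Smc3* and *Nhp2*, with r between 0.983 and 0.996.

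*Hhip*, which codes for a membrane protein that binds Hedgehog ligands and dampens the pathway, lies on chromosome 8 from 79965851 to 80058006. It was at 0.644, 0.471 and 0.506 FPKM in the day 10 libraries against 0.616, 0.323 and 0.175 FPKM in the day 14 libraries. Replicate 1 of day 14 fell within the day 10 range, and the other day 14 libraries were below it. This order differs from that of *Ihh* and *Gli1*, for which replicate 2 was the highest library of day 14. The log2 difference of −0.54 (standard error 0.57, adjusted p = 0.819 from limma) was within the spread between replicates, on about 10.99 to 34.8 estimated reads. The most alike genes were *Gm5918*, *Dapk3*, *Zfp524*, *Myg1* and *Dusp8*, with r from 0.958 to 0.984, and just these 5 genes had an r above 0.95.

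**Figure D3:**
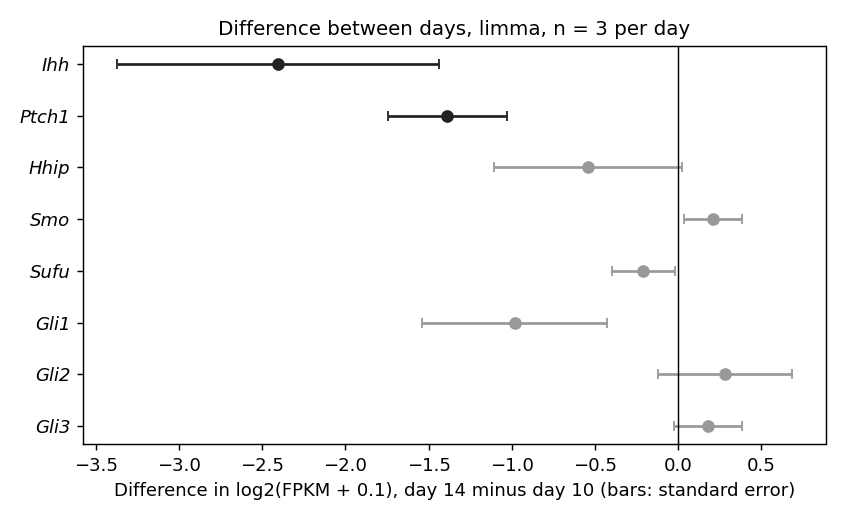
Difference in log2(FPKM + 0.1) between the day means, day 14 minus day 10, for the 8 Hedgehog genes tested, with limma's standard error as bars. Black marks an unadjusted p under 0.05 (*Ihh* at −2.40 and *Ptch1* at −1.39), grey the other genes, and none of the 8 had an adjusted p under 0.05.

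*Smo*, the transducer, lies on chromosome 6 from 29735503 to 29761365. It was at 16.5, 17.9 and 20.4 FPKM in the day 10 libraries against 17.6, 24.0 and 21.9 FPKM in the day 14 libraries, with overlapping days. The log2 difference was 0.21 (standard error 0.17, adjusted p = 0.769 from limma). *Sufu*, the inhibitor that holds Gli proteins in the cytoplasm, lies on chromosome 19 from 46396896 to 46488804. It was at 6.17, 5.83 and 6.27 FPKM in the day 10 libraries against 4.68, 5.65 and 5.47 FPKM in the day 14 libraries, so that all day 14 libraries were lower by a small margin. Its log2 difference was −0.21 (standard error 0.19, adjusted p = 0.785 from limma), and a two-sided exact permutation test gave p = 0.1. *Smo* and *Sufu* rested on about 284 to 562 and 91.1 to 209 estimated reads.

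*Gli3*, known mainly as the repressor among the Gli factors, was the highest of the 3 in all 6 libraries. It lies on chromosome 13 from 15463235 to 15730026 and was at 4.47, 5.22 and 5.37 FPKM in the day 10 libraries against 6.25, 5.90 and 4.94 FPKM in the day 14 libraries. *Gli2*, the main activator of the pathway, lies on chromosome 1 from 118834132 to 119053619 and was at 1.88, 1.17 and 0.987 FPKM in the day 10 libraries against 2.09, 1.79 and 1.09 FPKM in the day 14 libraries. The days overlapped for both. The log2 differences were 0.18 for *Gli3* (standard error 0.20, adjusted p = 0.838 from limma) and 0.28 for *Gli2* (standard error 0.40, adjusted p = 0.879 from limma). *Gli1* was below *Gli2* in all 6 libraries.

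Ratios between genes within a library do not depend on the scaling of the libraries, and the ratios given here were picked after the values were seen. The FPKM of *Gli3* over that of *Gli1* was 6.30, 4.72 and 8.03 on day 10 and 32.9, 8.65 and 15.1 on day 14. The FPKM of *Ptch1* over that of *Smo* was 0.356, 0.322 and 0.183 on day 10 and 0.118, 0.111 and 0.0520 on day 14. In both ratios the days did not overlap, though replicate 2 of day 14 came close to day 10 in the former.

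The other genes of the pathway were read from 5 lists by role, with 51 of 52 genes tested. None had an adjusted p under 0.05 from limma. By the unadjusted p 5 of the 51 (9.80%) passed, close to the 10.0% of all genes tested, and in 8 (15.7%) the days were apart, where all genes gave 14.3%. The median log2 difference was −0.06. Both shares were near those of all genes tested, and the genes that passed are described by role.

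Among 7 genes for further ligands and ligand release, 1 was higher and 1 lower by the unadjusted p, with a median log2 difference of −0.14. *Scube2*, a secreted protein that helps lipid-bearing Hedgehog ligands leave the cell, was at 9.18, 8.72 and 11.97 FPKM in the day 10 libraries against 14.1, 18.6 and 22.6 FPKM in the day 14 libraries. Every day 14 library was higher, with a log2 difference of 0.87 (standard error 0.22, adjusted p = 0.309 from limma). *Disp1*, the transporter that exports the ligand, was at 8.38, 6.29 and 5.75 FPKM in the day 10 libraries against 4.49, 5.45 and 3.17 FPKM in the day 14 libraries, all lower (log2 difference −0.64, adjusted p = 0.469 from limma). *Hhat*, which attaches the palmitate to the ligand, was at 8.43 to 10.99 FPKM on day 10 and 11.8 to 13.3 FPKM on day 14 (log2 difference 0.39, adjusted p = 0.506 from limma).

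None of 5 receptors and co-receptors passed the unadjusted p, with a median log2 difference of −0.08. *Gas1* and *Boc*, which help the ligand bind *Ptch1*, were the highest. *Gas1* was at 48.0 to 108 FPKM on day 10 and 56.2 to 96.4 FPKM on day 14, and *Boc* at 10.8 to 17.7 and 10.3 to 13.5 FPKM. *Cdon*, the relative of *Boc*, was lower at 1.23 to 2.38 FPKM. On the scale of FPKM, *Gas1* was therefore above *Ptch1* in every library.

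Of 15 intracellular components, 1 was lower by the unadjusted p and the median log2 difference was −0.06. *Kif7*, a kinesin of the cilium tip that regulates Gli proteins, was at 2.36, 2.69 and 1.87 FPKM in the day 10 libraries against 1.12, 1.05 and 0.590 FPKM in the day 14 libraries. Its days were apart, with replicate 2 of day 14 beside replicate 1, and its log2 difference was −1.27 (standard error 0.37, adjusted p = 0.340 from limma). The highest of the list were *Gnas*, *Csnk1a1* and *Spop*, at 417 to 727, 63.6 to 111 and 45.0 to 58.1 FPKM, and the days overlapped for all 3.

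Of 10 cilium components, 1 was higher by the unadjusted p and the median log2 difference was 0.21. *Arl13b*, a small GTPase of the ciliary membrane, was at 4.49, 6.08 and 7.08 FPKM in the day 10 libraries against 10.2, 15.3 and 10.5 FPKM in the day 14 libraries. Every day 14 library was higher, with a log2 difference of 1.01 (standard error 0.25, adjusted p = 0.305 from limma). *Ift172* and *Kif3a*, which run transport along the cilium, were at 2.53 to 3.88 and 2.496 to 3.70 FPKM with overlapping days.

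Of 14 tested candidate target genes, 1 was lower by the unadjusted p and the median log2 difference was 0.08. *Bmp4*, a ligand that Hedgehog signals are known to induce in several tissues, was at 5.37, 3.76 and 1.72 FPKM in the day 10 libraries against 0.490, 1.04 and 0.158 FPKM in the day 14 libraries. The days were apart, with a log2 difference of −2.60 (standard error 0.63, adjusted p = 0.305 from limma). *Runx2*, needed for OB formation, was at 23.3, 26.7 and 13.2 FPKM in the day 10 libraries against 10.5, 19.4 and 7.00 FPKM in the day 14 libraries (log2 difference −0.83, adjusted p = 0.528 from limma). *Spp1*, the osteopontin gene, was at 3583 to 9663 FPKM on day 10 and 2230 to 10176 FPKM on day 14, and *Ccnd2*, a G1 cyclin, at 10.7 to 15.2 and 11.9 to 20.4 FPKM. These targets respond to many other signals as well. Without replicate 2 of day 14, a setting added after the data were seen, *Scube1* and *Runx2* also passed as lower and *Pthlh* and *Osr1* as higher by the unadjusted p in the lists of ligand release and target genes, beside *Scube2*, *Disp1* and *Bmp4*, while *Kif7* and *Arl13b* still passed in theirs.

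**Figure D4:**
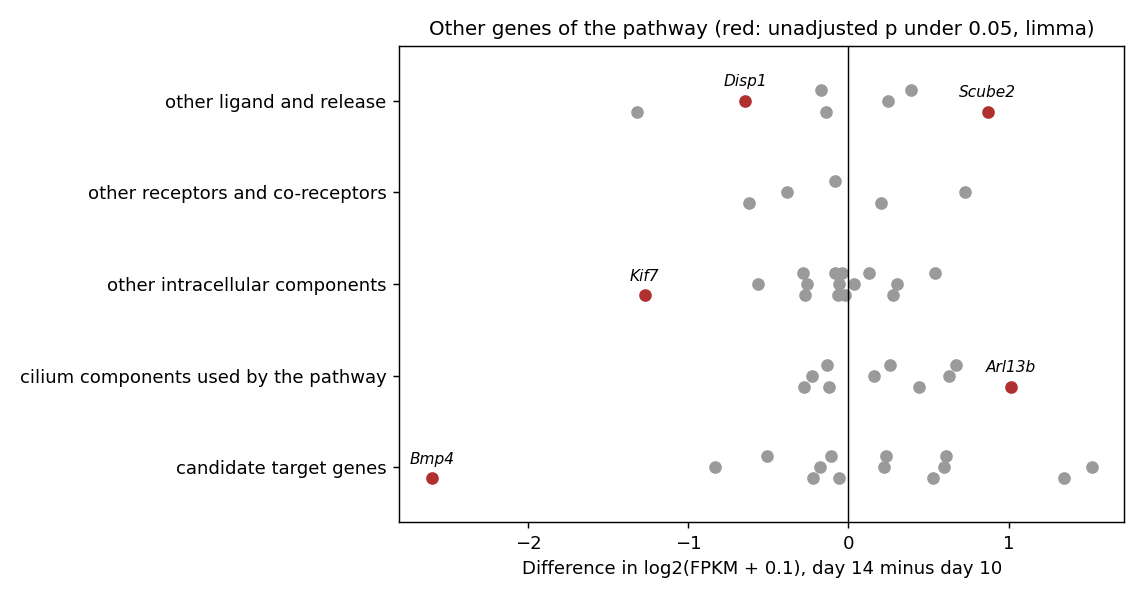
Difference in log2(FPKM + 0.1) between the day means, day 14 minus day 10, for the 51 other pathway genes tested, 1 point per gene and 1 row per role. The 5 named genes in red had an unadjusted p under 0.05 from limma, from *Bmp4* at −2.60 to *Arl13b* at 1.01, and none had an adjusted p under 0.05.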

How the data were processed

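Per the labels and the methods, the authors mapped 75-base single-end reads of SMART-Seq cDNA to mm10 with TopHat2 2.0.13, Bowtie2 2.2.3 and SAMtools 0.1.19, and deposited FPKM per gene from Cufflinks 2.2.1, with 1 file per sample. Gene annotation, strand handling and scaling between samples are not given in the sources used here. In 1 file, 25 symbols turned into dates were restored by position, none of them a gene reported here.

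The members and gene lists were chosen with earlier results of these data known. Genes with a mean FPKM above 0.1 were compared across all genes on log2(FPKM + 0.1) with limma 3.58.1 in R 4.3.3 (mean-variance trend, day as the only factor, Benjamini-Hochberg adjustment), checked on simulated data. Permutation tests were exact and two-sided (scipy 1.17.1). FPKM + 0.1 understates the change of low genes.

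Read numbers were estimated from the steps between values of at most 0.3 FPKM in 1977 genes that have 1 annotated transcript (1500 to 8000 bases long), taking the depths and the fragment length (235 bases) that gave the most whole read numbers. Per library, 75.2% to 79.9% of those values were then whole to within 0.1, so estimates are approximate, more so for genes with several transcripts. Named were all members, the 3 highest genes and those with an unadjusted p under 0.05 of each pathway list, cell type markers, and the 5 genes most like *Ihh*, *Ptch1*, *Gli1* and *Hhip*. Gene symbols are those of the files.

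Alternatives were other pseudocounts, filters and scalings, no trend, the replicate number as a block, and leaving out each sample. No column of the files was left unassigned to a sample.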

Additional observations from a re-analysis of the deposited data

How the results depend on the processing

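The log2 difference of *Ptch1* kept its sign and an unadjusted p under 0.05 from limma in all 14 alternatives (−1.64 to −1.06), and its adjusted p was at least 0.114. That of *Ihh* kept its sign (−3.60 to −1.24) and passed the unadjusted p in 8 of 14. No other of the 8 genes changed sign, and of these *Gli1* passed in 1 alternative, without replicate 2 of day 14. *Gli1* and *Hhip* had no value with the filter at a mean above 1 FPKM. The count of Hedgehog genes with an unadjusted p under 0.05 was 2, and 1 without limma's trend, when *Ihh* was lost. Leaving out each library in turn gave 1 to 3 such genes and 2 to 4 genes with days apart. With 1 library fewer, days lie apart more easily, and the share of all genes apart was not counted in these fits. The counts of genes apart therefore cannot be set beside the 14.3% of all genes apart with all 6 libraries. *Ihh* was lost without any 1 of the libraries other than replicate 2 of day 14. Over all genes, the same fits gave 3 to 76 genes with an adjusted p under 0.05 (76 without replicate 2 of day 14) and 937 (without replicate 1 of day 10) to 2559 genes with an unadjusted p under 0.05. Without replicate 1 of day 14, 40.0% of the latter were higher on day 14, against 56.0% with all 6 libraries.

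In the paired fit (replicate block), 2130 genes had an unadjusted p under 0.05, 2 had an adjusted p under 0.05, and 2 of the 8 Hedgehog genes (*Ptch1* and *Ihh*) passed the unadjusted p. Deviations of same-numbered libraries from their day means had r of 0.058, −0.006 and 0.089. Replicates 1 and 3 of day 10 correlated best with their own number. Replicate 2 of day 10 did not, with its highest r (0.014) for replicate 3 of day 14. The titles give only a number, and such r values cannot tell whether same-numbered samples were handled together. With FPKM scaled to an equal sum or by the median of ratios, 3 Hedgehog genes had days apart, *Gli1* being added. The share of all genes with days apart was not counted under these scalings. Depth limits *Shh*, *Dhh*, *Gli1* and the low *Ihh* values.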
